A study of Mus musculus with 40 samples.

Results

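The distribution of dimethylation on lysine 9 of histone H3 (H3K9me2) along the genome was compared between mouse oocytes deleted for G9a and control oocytes. H3K9me2 had been measured by native chromatin immunoprecipitation followed by sequencing in 2 control libraries (control 2 and control 4) and 2 libraries of the genotype G9a cKO, a conditional knockout of G9a (G9a cKO 1 and G9a cKO 3). A further 2 libraries of oocytes deleted for both G9a and Glp (G9a-Glp cDKO 5 and 7) are given beside them. The series holds 40 samples in all. The germinal-vesicle oocytes, fully grown oocytes before meiotic maturation, came from mice aged 22 to 25 days, and 100 to 200 oocytes were pooled per sample. No source used here gives the strain, the Cre driver of the deletion, or whether libraries of a group came from separate animals, so p-values measure the spread between these libraries. The members were windows of 10 kb with at least 1 read in any of the 6 H3K9me2 libraries, 255057 of the 272158 windows of the table. They were summed to bins of 100 kb and of 1 Mb, keeping bins in which at least 50% of the windows had a read. This left 25549 of 27264 bins of 100 kb and 2572 of 2737 bins of 1 Mb.

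G9A (gene Ehmt2) and its partner GLP (gene Ehmt1) form the main methyltransferase complex for H3K9me2 in mammalian cells. H3K9me2 is a broad mark of silent chromatin that covers long domains, many of them at the nuclear periphery, while other enzymes such as SETDB1, SUV39H1 and SUV39H2 methylate the same lysine and act most at repeats and around centromeres. Fully grown oocytes are transcriptionally quiet, do not divide and carry a chromatin landscape built up during their growth.

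Control 2 and control 4 held 7048784 and 19128881 reads. G9a cKO 1 and 3 were far shallower, with 1857144 and 1109191, and so were cDKO 5 and 7, with 1723142 and 1881848. The median 1 Mb bin held 2806 and 7670 reads in the controls and 727 and 431 in G9a cKO. The median 100 kb bin held 281 and 768 against 70 and 42. Levels are in RPM, reads scaled to a library total of 1000000, so each is a share of its own library. A loss of H3K9me2 over the whole genome cannot be told apart from no loss on this scale, and "higher" and "lower" below mean a larger or smaller share. The RNA libraries of this genotype are other samples, so no value here checks the deletion in the H3K9me2 libraries themselves. The input libraries were not analysed here.

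Of the 8 bins of 1 Mb that rose most, 6 held at least 5 genes of one family. To show how alike such genes can be, the 120 bases upstream of some of their gene starts are given from RefSeq (GRCm38.p6), 5′ to 3′ on the strand of the gene. Capitals mark bases that differ from the first sequence of each set. The first set holds 4 vomeronasal receptor genes, which encode pheromone receptors of sensory neurons, from the 1 Mb bin with the largest rise. Vmn1r127 lies at chr7:21319862-21319981 on the minus strand, Vmn1r248 at chr7:21796729-21796848 (minus), Vmn1r122 at chr7:21134129-21134248 (minus) and Vmn1r120 at chr7:21053785-21053904 (minus).
Vmn1r127: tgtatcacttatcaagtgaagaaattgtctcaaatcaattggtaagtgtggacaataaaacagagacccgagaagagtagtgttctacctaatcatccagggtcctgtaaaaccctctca
Vmn1r248: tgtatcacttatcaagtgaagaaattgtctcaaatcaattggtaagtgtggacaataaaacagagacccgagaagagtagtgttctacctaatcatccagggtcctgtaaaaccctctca
Vmn1r122: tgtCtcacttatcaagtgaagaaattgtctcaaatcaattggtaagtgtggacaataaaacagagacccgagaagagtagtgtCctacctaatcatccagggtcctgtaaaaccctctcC
Vmn1r120: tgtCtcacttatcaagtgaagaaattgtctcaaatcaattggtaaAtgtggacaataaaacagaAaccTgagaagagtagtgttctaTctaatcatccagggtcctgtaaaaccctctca
The upstream bases of Vmn1r248, at another place of the array, matched it at every base. Vmn1r122 differed at 3 bases and Vmn1r120 at 5.

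A second set came from the same array. Vmn1r130 lies at chr7:21511660-21511779 (plus), Vmn1r137 at chr7:21994467-21994586 (plus), Vmn1r131 at chr7:21546091-21546210 (minus) and Vmn1r128 at chr7:21349253-21349372 (plus).
Vmn1r130: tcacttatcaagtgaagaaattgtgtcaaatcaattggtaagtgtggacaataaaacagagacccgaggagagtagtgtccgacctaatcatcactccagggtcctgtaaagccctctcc
Vmn1r137: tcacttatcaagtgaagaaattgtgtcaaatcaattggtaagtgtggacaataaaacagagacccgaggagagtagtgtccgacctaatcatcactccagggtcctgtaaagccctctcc
Vmn1r131: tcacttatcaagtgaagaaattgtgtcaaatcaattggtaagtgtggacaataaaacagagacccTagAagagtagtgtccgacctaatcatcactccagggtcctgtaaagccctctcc
Vmn1r128: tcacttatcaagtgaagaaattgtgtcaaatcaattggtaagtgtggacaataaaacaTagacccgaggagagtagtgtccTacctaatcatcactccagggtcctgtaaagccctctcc
The first and second of these were identical, and Vmn1r131 and Vmn1r128 each differed from them at 2 bases. Of 63 Vmn1r starts in chr7:20000001-23000000, 50 had an identical copy of their 120 upstream bases at another of these starts, and 60 had one with at least 95% identity. The sources used here do not give how reads matching several places were treated, so the values of such bins describe the array rather than a single gene.

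The third set holds cytochrome P450 genes of the steroid- and drug-oxidising Cyp3a family, from one of the longest stretches of higher H3K9me2. Cyp3a41a lies at chr5:145720137-145720256, Cyp3a41b at chr5:145584731-145584850 and Cyp3a44 at chr5:145805875-145805994, each on the minus strand.
Cyp3a41a: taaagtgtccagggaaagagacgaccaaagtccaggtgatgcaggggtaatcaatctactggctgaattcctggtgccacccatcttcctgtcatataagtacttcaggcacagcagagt
Cyp3a41b: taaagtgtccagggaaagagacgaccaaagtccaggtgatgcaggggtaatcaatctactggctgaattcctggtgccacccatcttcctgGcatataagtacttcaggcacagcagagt
Cyp3a44: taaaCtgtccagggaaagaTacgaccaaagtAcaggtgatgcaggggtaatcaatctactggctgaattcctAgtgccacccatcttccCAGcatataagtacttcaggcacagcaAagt
Cyp3a41b differed from Cyp3a41a at 1 base and Cyp3a44 at 8. The 100 kb bin of the Cyp3a44 start held 37.0 and 36.8 RPM in the controls and 87.2 and 78.4 RPM in G9a cKO (log2 difference 1.14 ± 0.13 (SE), adjusted p = 0.000849 in limma). The bins of Cyp3a41a and Cyp3a41b rose by 1.13 and 1.24 on the log2 scale. In the vomeronasal array, the bin that holds both Vmn1r127 and Vmn1r128 went from 3.12 and 4.29 RPM to 20.5 and 12.6 RPM, on 38 and 14 reads in G9a cKO. The starts of Vmn1r248, Vmn1r130, Vmn1r137 and Vmn1r131 lay in bins with too few covered windows to be tested.

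Over the genome, many regions gained and many lost in their share of H3K9me2 reads in G9a cKO, with more rises than falls in gene-dense bins and arrays of related genes and more falls than rises inside long genes and in bins without a gene start. These differences between classes are counts with no test of their own. Among 1 Mb bins, 639 were higher (24.8% of those tested) and 772 lower (30%), together 1411 (54.9%), at an adjusted p under 0.05 in limma. The median level of the higher 1 Mb bins was 380 and 379 RPM in the controls and 475 RPM in both G9a cKO libraries. The lower bins went from 412 and 419 RPM to 338 and 330 RPM. Most changes were modest: the median log2 difference was 0.32 in higher and -0.31 in lower 1 Mb bins, and 144 higher and 97 lower bins differed by 0.5 or more. Among 100 kb bins, 3559 were higher (13.9%) and 4022 lower (15.7%), together 7581 (29.7%), with median log2 differences of 0.65 and -0.63. In each called bin of both sizes both G9a cKO libraries lay on the same side of both controls. The calls were made on these same values, and such separation was common over all tested bins. At 100 kb both G9a cKO libraries lay above both controls in 7867 and below in 10201 of 25549 bins. At 1 Mb the counts were 946 and 1117 of 2572, so separation does not set the called bins apart. The split depends on the scaling: with each library centred on its median bin, 4402 bins of 100 kb were higher and 2737 lower, so 61.7% of the calls were rises in place of 46.9%. Counts were lower with 1 control left out: 1861 bins of 100 kb and 864 of 1 Mb without control 2, and 1767 and 787 without control 4.

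The G9a cKO profile differed from the control profile by more than replicates differed from each other. Over 1 Mb bins, Pearson's r across bins was 0.991 between the controls, 0.929 between the G9a cKO libraries and 0.679 to 0.696 between a control and a G9a cKO library. With all libraries thinned to the same depth, 2.88% of reads would have to move between 1 Mb bins to turn one control into the other, 4.18% for the G9a cKO pair and 8.15% to 8.62% across genotypes. The changes measured in separate pairs of libraries, G9a cKO 1 minus control 2 and G9a cKO 3 minus control 4, had r = 0.873 across the 2572 bins of 1 Mb and 0.728 across the 25549 bins of 100 kb. Their sign was the same in 84.5% of 1 Mb bins and 77% of 100 kb bins. The change extended over neighbouring bins, with r = 0.478 between adjacent 100 kb bins and 0.247 at a distance of 1000 kb. At the full depth of each library, which was far lower in G9a cKO, the 10% of 100 kb bins with the most reads held 17.2% and 16.8% of the reads, against 13.1% in both controls. The SD of log2 levels over autosomal 100 kb bins was 0.40 and 0.41 in the controls and 0.51 and 0.53 in G9a cKO. With all libraries thinned to the same depth it was 0.46 and 0.47 against 0.53 in both, a smaller gap. At 1 Mb the thinned SDs overlapped, at 0.34 and 0.35 against 0.33 and 0.36.

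The largest rises were in arrays of vomeronasal receptors on chromosome 7. The bin chr7:21000001-22000000, which holds the starts of 19 vomeronasal genes among 23 protein-coding starts, had 23.8 and 25.6 RPM in the controls and 99.1 and 70.3 RPM in G9a cKO. This was a 3.29-fold rise (log2 difference 1.72 ± 0.20 (SE), adjusted p = 0.000108 in limma), and the groups were far apart although the G9a cKO libraries also differed from each other. The neighbouring bins chr7:20000001-21000000 and chr7:22000001-23000000 rose 2.59-fold and 2.84-fold, from 34.6 and 35.8 RPM to 96.4 and 89.3 RPM and from 23.8 and 23.4 RPM to 83.5 and 56.8 RPM. The first of these also holds Nlrp9b (651 RPM of RNA in control oocytes), an oocyte member of the NLRP family. A second vomeronasal array, of Vmn2r genes, spans chr7:8000001-10000000. Its first 1 Mb rose from 38.3 and 38.1 RPM to 132 and 103 RPM (3.00-fold) and its second from 22.6 and 20.4 RPM to 62.5 and 61.3 RPM (2.80-fold).

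The other 3 of the 8 bins with the largest rises lay on chromosomes 2 and X. The bin chr2:177000001-178000000, with Gm14410 and the zinc finger gene Zfp970 among 7 protein-coding starts, rose from 146 and 136 RPM to 380 and 373 RPM (log2 difference 1.41 ± 0.11, adjusted p = 3.89e-05). On the X chromosome, chrX:3000001-4000000 holds 5 Btbd35f genes, a multicopy family, and rose from 42.6 and 45.6 RPM to 116 and 105 RPM. The bin chrX:27000001-28000000, with Gm10230 and Gm10058, held only 4.54 and 3.50 RPM in the controls and 14.0 and 13.5 RPM in G9a cKO, on 26 and 15 reads. Of these 8 bins, the one on chromosome 2 alone reached 50% of the level of the median bin over the 6 libraries, a limit set after the data were seen, so the other 7 rises were in bins with few reads in every library. Quantile normalisation ended the call of 3 of them: the adjusted p became 1 for chrX:27000001-28000000, 0.213 for chr7:22000001-23000000 and 0.113 for chr7:9000001-10000000.

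The 8 largest falls were in bins with control levels of 311 to 465 RPM, most of them with 1 or a few genes. The bin chrX:52000001-53000000, with Phf6, a chromatin-associated zinc finger protein, Hprt, an enzyme of purine salvage, and Gpc3, a cell-surface proteoglycan, fell from 465 and 458 RPM to 258 and 252 RPM (log2 difference -0.86 ± 0.06, adjusted p = 3.69e-05). Its G9a cKO libraries lay close together, far below both controls. The bin chr16:74000001-75000000 lies wholly inside Robo2, an axon guidance receptor, and fell from 366 and 380 RPM to 221 and 197 RPM. On the same chromosome, the bin of Epha3, an ephrin receptor, at chr16:63000001-64000000 fell from 394 and 391 RPM to 230 and 221 RPM.

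On chromosome 14, the bin of Dach1, a transcription cofactor of organ development, at chr14:97000001-98000000 fell from 380 and 382 RPM to 227 and 217 RPM. That of Pcdh9, a non-clustered protocadherin, at chr14:93000001-94000000 went from 330 and 311 RPM to 223 and 157 RPM and was the least even of the 8 between the G9a cKO libraries (log2 difference -0.77 ± 0.14). The bin inside Macrod2, at chr2:141000001-142000000, fell from 407 and 428 RPM to 251 and 241 RPM. Over the 8 bins the fitted share in G9a cKO was 0.553 to 0.590 of that in control. The remaining bins of the 8 were chr5:98000001-99000000, with the anthrax toxin receptor gene Antxr2 and the kinase gene Prkg2 (log2 difference -0.81), and chrX:157000001-158000000, with the spermine synthase gene Sms, the protease gene Mbtps2 and the scaffold gene Cnksr2 (-0.76). All 8 falls kept their call in every alternative that was run for them. The control libraries differed from each other by far less than the groups in every one of the 16 bins.

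**Figure D1:**
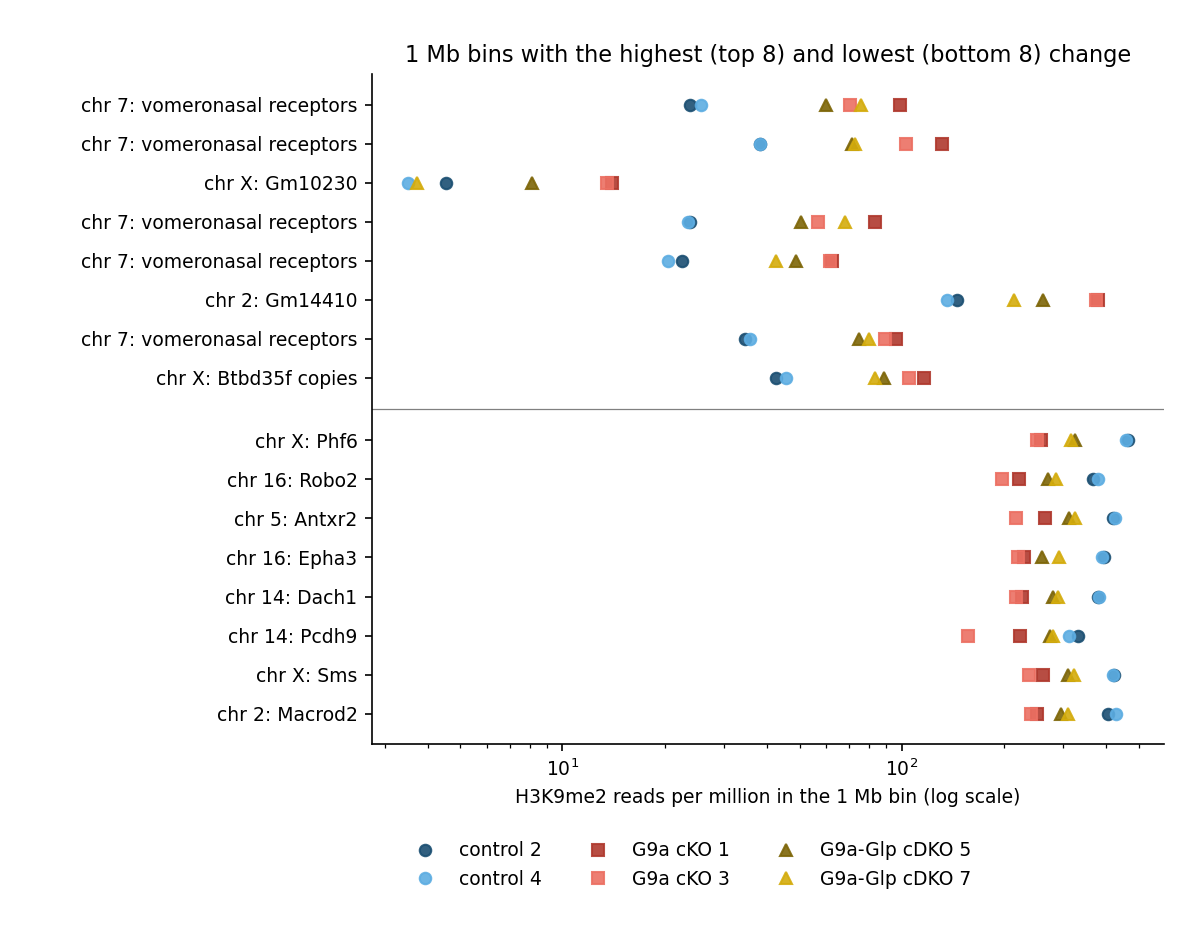
H3K9me2 level in each of the 6 libraries for the 8 bins of 1 Mb with the largest rise and the 8 with the largest fall, in RPM on a log axis, with 1 point per library. In the rising bins both G9a cKO libraries lie above both controls, as in the Vmn1r bin at 99.1 and 70.3 against 23.8 and 25.6 RPM, and in the falling bins both lie below, as in the Robo2 bin at 221 and 197 against 366 and 380 RPM.

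Calls of the same direction often lay side by side. Runs of at least 3 adjacent 100 kb bins numbered 273 for rises (1145 bins) and 309 for falls (1219 bins). The longest run of rises, 1300 kb at chr12:17800001-19100000, held the little-studied gene 5730507C01Rik and went from 29.8 and 29.9 RPM per 100 kb to 69.0 and 52.0 RPM. The next, 1200 kb at chr5:145100001-146300000, is the one with the Cyp3a genes and also holds Zfp655, the splicing factor gene Bud31 and the kinase gene Cdk8. It rose from 30.9 and 29.5 RPM to 66.4 and 63.9 RPM, a mean log2 difference of 1.07. The control levels of these 2 runs were low in the range of 100 kb bins, whose autosomal median was 39.9 and 40.2 RPM and 5th percentile 28.5 and 28.2 RPM in the controls.

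Among the other long runs of rises, 1100 kb at chr2:36300001-37400000 hold 28 olfactory receptor genes, which encode odorant receptors, and rose from 34.3 and 33.2 RPM to 77.2 and 71.96 RPM. A run of 1100 kb at chr7:33100001-34200000 holds 14 genes of secretoglobins, small secreted proteins, together with Pdcd2l, the SUMO-activating enzyme gene Uba2 and Wtip. It rose from 24.5 and 26.6 RPM to 59.2 and 52.0 RPM. Both had G9a cKO libraries close together. A run at chrX:32900001-34000000 with 6 Btbd35f genes went from 7.08 and 7.32 RPM to 17.4 and 16.6 RPM.

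The longest run of falls, 1500 kb at chr16:73700001-75200000, lies mostly inside Robo2 (chr16:73891976-75447443), of which it leaves out one end, and went from 37.6 RPM in both controls to 21.1 and 21.0 RPM. A run of 1200 kb at chrX:47500001-48700000 holds 15 genes, among them the transcriptional corepressor gene Bcorl1, the mitochondrial gene Aifm1 and the phosphatase gene Ocrl, and fell from 49.1 and 47.8 RPM to 27.4 and 24.5 RPM. Unlike most long falls, it is gene-dense. A run of 1000 kb at chr14:96700001-97700000 holds no protein-coding gene and fell from 38.3 and 39.5 RPM to 23.2 and 22.4 RPM. Inside Lsamp, a neuronal adhesion protein, 800 kb at chr16:40700001-41500000 fell from 38.4 and 39.0 RPM to 23.6 and 19.5 RPM. The mean direction of all 16 runs named by the rule kept its sign in each alternative, but at least 1 bin lost its call in 16 of the 16 runs without control 2 and in 15 without control 4, in 13 without G9a cKO 1 and 8 without G9a cKO 3, in 15 without a bin filter, 14 after thinning, 11 with quantile normalisation and 8 with median centring. The extent of a run thus depends on the setting.

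Bins inside long genes had a median log2 difference below 0. Of the 1700 bins of 100 kb that lie wholly inside the 227 protein-coding genes of at least 500 kb, 510 were lower (30%) and 98 higher (5.76%), beside 15.7% and 13.9% of all bins. Without control 2 the calls were 89 lower and 28 higher, and without control 4 they were 78 and 29. The median was -0.30 with all libraries and between -0.31 and -0.28 with any 1 left out. The median bin was below 0 on the log2 scale in 178 of these genes. In 144 genes both G9a cKO libraries had a mean level below both controls, and in 42 both lay above. Over all single 100 kb bins the median log2 difference was also below 0, at -0.07. Both G9a cKO libraries lay below both controls in 10201 of these 25549 bins and above in 7867. Some of the long genes overlap and share bins, such as Gm37013, Gm38666 and Gm38667, so the gene counts are not of separate regions. The genes named next are the longest ones, chosen by length.

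In Ptprd, a receptor phosphatase of synapses (chr4:75941237-78211742), 16 of 22 bins fell and none rose, and the mean bin went from 39.2 and 38.5 RPM to 25.6 and 25.3 RPM. In Lsamp (chr16:39984254-42181679), 17 of 21 bins fell, from 37.9 and 38.9 RPM to 25.2 and 22.8 RPM. In Macrod2 (chr2:140395303-142392966), 12 of 19 bins fell and 1 rose. In these 3 genes most of the gene body lost share.

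Other long genes changed in a smaller part of their length. In Dmd, the gene of dystrophin (chrX:82814664-85205050), 7 of 23 bins fell, and the mean bin went from 34.6 and 34.8 RPM to 27.2 and 26.3 RPM. In Cntnap2, a neurexin-like adhesion gene (chr6:45060061-47301393), 6 of 22 bins fell and 1 rose, from 35.8 and 37.4 RPM to 33.2 and 33.5 RPM. In Lrp1b, an LDL receptor relative (chr2:40595290-42653598), 3 of 20 bins fell. The falls were thus uneven between genes of like length. A wider class held bins without any start and with at least 75% of their length in protein-coding gene bodies, whatever the gene length. At 1 Mb this class was small: of 15 bins, 11 fell and 1 rose. Their means were 394 and 406 RPM in the controls and 323 and 303 RPM in G9a cKO. At 100 kb it held 3916 bins, of which 22.1% were lower and 9.73% higher.

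Among gene-dense bins more rose than fell, beside 24.8% higher and 30% lower of all 1 Mb bins. Of the 274 bins of 1 Mb with 20 or more protein-coding starts, 138 rose (50.4%) and 18 fell (6.57%), from means of 380 and 376 RPM to 428 and 432 RPM. Of the 284 bins without a protein-coding start, 42 rose (14.8%) and 116 fell (40.8%), from 379 and 383 RPM to 365 and 352 RPM. Bins with much RNA in control oocytes, 1000 RPM or more summed over their loci, also rose more often than they fell: 129 of 303 rose and 27 fell. Gene number and RNA level were not separated in these counts. With 20 or more starts, 92 bins rose without control 2 and 76 without control 4. The falls without a start numbered 70 and 66, and the rises in bins with much RNA 78 and 64. At 100 kb the rises were closer to the share of all bins. Of bins with 4 or more starts, 18.3% were higher and 6.34% lower. Of those with 1000 RPM or more of RNA, 15.8% were higher and 5.26% lower. Bins without a protein-coding start were also closer to all bins there, with 11.8% higher and 19.0% lower. All 100 kb bins stood at 13.9% and 15.7%.

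Bins with tandem gene families, here 5 or more genes with one symbol root within 500 kb, a class added after the data were seen, rose in 103 of 203 cases and fell in 23. The shares were 50.7% and 11.3%, beside 24.8% and 30% of all 1 Mb bins. The mean levels of the tandem family bins went from 364 and 365 RPM to 424 and 414 RPM. With bins under 50% of the median level left out, 94 of 191 rose and 22 fell, and 68 of 203 rose both without control 2 and without control 4. Repeated upstream sequence went with rises in the same way. Of 1326 gene starts whose 250 upstream bases share a run of 50 identical bases with another gene, 487 lay in higher 100 kb bins (36.7%) and 75 in lower ones (5.66%). Of the 15860 starts without such a run, 16.1% lay in higher and 9.31% in lower bins. The part of read placement in this difference was not tested.

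Gene families and pathways were followed through the 100 kb bins that hold the starts of their members. Of the 10862 bins with any protein-coding start, 16.8% were higher and 11.4% lower. Vomeronasal receptor bins stood at 107 higher and 3 lower of 192 (median log2 difference 0.53), beside a median of 0.01 for all bins with a start. The vomeronasal count was 47 higher without control 2 and 50 without control 4. For zinc finger genes of the Zfp series, 126 of 269 bins were higher and 11 lower (median 0.43), with 76 and 70 higher when control 2 or 4 was left out. The bin of Zfp970 at chr2:177400001-177500000 went from 16.7 and 16.05 RPM to 49.5 and 51.4 RPM (1.57 ± 0.16, adjusted p = 0.000739). Those of Zfp979 and Zfp981 on chromosome 4 rose by 1.63 and 1.55 on the log2 scale from control levels of 4.26 to 6.59 RPM, and the call of Zfp981 was lost after thinning (adjusted p = 0.208).

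Of the 8 bins of the clustered protocadherins, cell-surface proteins that give neurons individual identities, 5 were higher and none lower (median 0.85), and 5 were higher with any 1 library left out. The bin chr18:37300001-37400000, with Pcdhb3, Pcdhb4 and Pcdhb5, went from 29.9 and 28.4 RPM to 66.8 and 60.4 RPM (1.10 ± 0.17, adjusted p = 0.00214). Its control level was close to the 5th percentile of autosomal 100 kb bins (28.5 and 28.2 RPM). Olfactory receptor bins were more mixed, with 91 higher and 23 lower of 342 (median 0.14), and 45 or 48 higher without control 2 or 4. The bin of Olfr345 and Olfr346 at chr2:36600001-36700000 went from 34.6 and 30.8 RPM to 82.4 and 79.3 RPM. The serpins, a family of protease inhibitors, had 12 higher and 2 lower of 39 bins (4 higher without control 2 and likewise without control 4), and those of Serpinb6d and Serpinb6e on chromosome 13 each rose by 0.98 on the log2 scale.

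Some families had medians below 0. None of the 9 Hox bins was higher and 1 was lower (median -0.45), a share of lower bins near the 11.4% of all bins with a start and a call lost without control 2 and without control 4. The lower bins numbered 2 without G9a cKO 1 and 3 without G9a cKO 3. The bin of Hoxb3, Hoxb4 and Hoxb5, developmental transcription factors, held 37.3 and 36.0 RPM in the controls and 17.8 and 30.7 RPM in G9a cKO and did not pass the test (-0.63 ± 0.23, adjusted p = 0.0578). It passed without G9a cKO 3 (adjusted p = 0.00800). The 8 bins of Rhox, X-linked homeobox genes of reproductive tissues, had 2 lower and none higher (1 lower when control 2 or 4 was left out, 5 without G9a cKO 1), and the bin of Rhox6, Rhox7a and Rhox8 fell from 33.9 and 35.7 RPM to 16.2 and 15.3 RPM (-1.10 ± 0.19, adjusted p = 0.00309). For keratins and keratin-associated proteins of epithelia and hair, 8 of 36 bins were lower and 1 higher, the latter with Krtap5-3 (39.6 and 39.9 to 89.4 and 82.0 RPM). The 8 falls became 0 without control 2 and 1 without control 4 (medians -0.24 and -0.30, beside -0.28 with all libraries). The balance of the keratin calls also depended on the scaling. With median centring 3 bins were lower and 4 higher (median -0.20), and with quantile normalisation 10 and 1 (median -0.25).

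Other lists had no common direction. Of 78 bins with ribosomal protein genes, 8 were higher and 7 lower, and of 49 with genes of complex I of the respiratory chain, 7 were higher and 3 lower. With control 2 or 4 left out the ribosomal calls were 2 higher and 0 lower, and those of complex I 3 higher without control 2 and 2 without control 4. Of the 9 bins of histone clusters, 1 was higher and 2 lower, and the sign of their median turned with quantile normalisation (-0.20 to 0.10). The histone bins called lower were 0 without control 2 and 1 without control 4, and so were the defensin bins called lower. Of 22 defensin bins, 1 was higher and 3 lower, and the fall of the bin with Defa39, Defa24 and Defb1 lost its call without control 2 (adjusted p = 0.0513).

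Lists of germ cell and early embryo genes had calls in both directions, beside 16.8% higher and 11.4% lower of all bins with a start. Of 24 oocyte gene bins, 4 were higher and 2 lower. They include the bins of Tle6 (28.4 and 26.7 to 54.4 and 53.2 RPM) and Nlrp5 (29.2 and 28.7 to 67.3 and 46.9 RPM), both of the maternal complex under the oocyte membrane. Of 20 bins of germline genes, 1 was higher and 2 lower, with Taf7l, a germ cell transcription factor on the X chromosome, going from 56.7 and 54.8 RPM to 28.0 and 20.7 RPM (-1.18 ± 0.17, adjusted p = 0.00145). Of 18 bins of genes known from the 2-cell embryo, 3 were higher and 2 lower. Without control 4 the counts were 2 higher and 0 lower for oocyte genes, 0 and 1 for germline genes and 0 and 0 for 2-cell genes. The medians of these 3 lists lay between 0.00 and 0.07, and each turned below 0 in some alternative (oocyte genes -0.02 and germline genes -0.09 without G9a cKO 3, 2-cell genes -0.16 without G9a cKO 1).

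Imprinted genes, expressed from a single parental copy, moved both ways, with 8 higher and 5 lower of 31 bins (4 and 1 without control 2, 6 and 1 without control 4). The bin of Jade1, a chromatin reader gene (chr3:41500001-41600000), went from 47.5 and 50.5 RPM to 17.2 and 29.8 RPM (-1.08 ± 0.22, adjusted p = 0.00572). The bin of Mest (chr6:30700001-30800000) rose from 16.6 and 22.1 RPM to 46.8 and 31.6 RPM, a call lost without control 2 (adjusted p = 0.0847) and without G9a cKO 1 (0.0739). The bin of Inpp5f, a phosphoinositide phosphatase gene, rose from 32.5 and 35.1 RPM to 65.2 and 60.4 RPM.

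**Figure D2:**
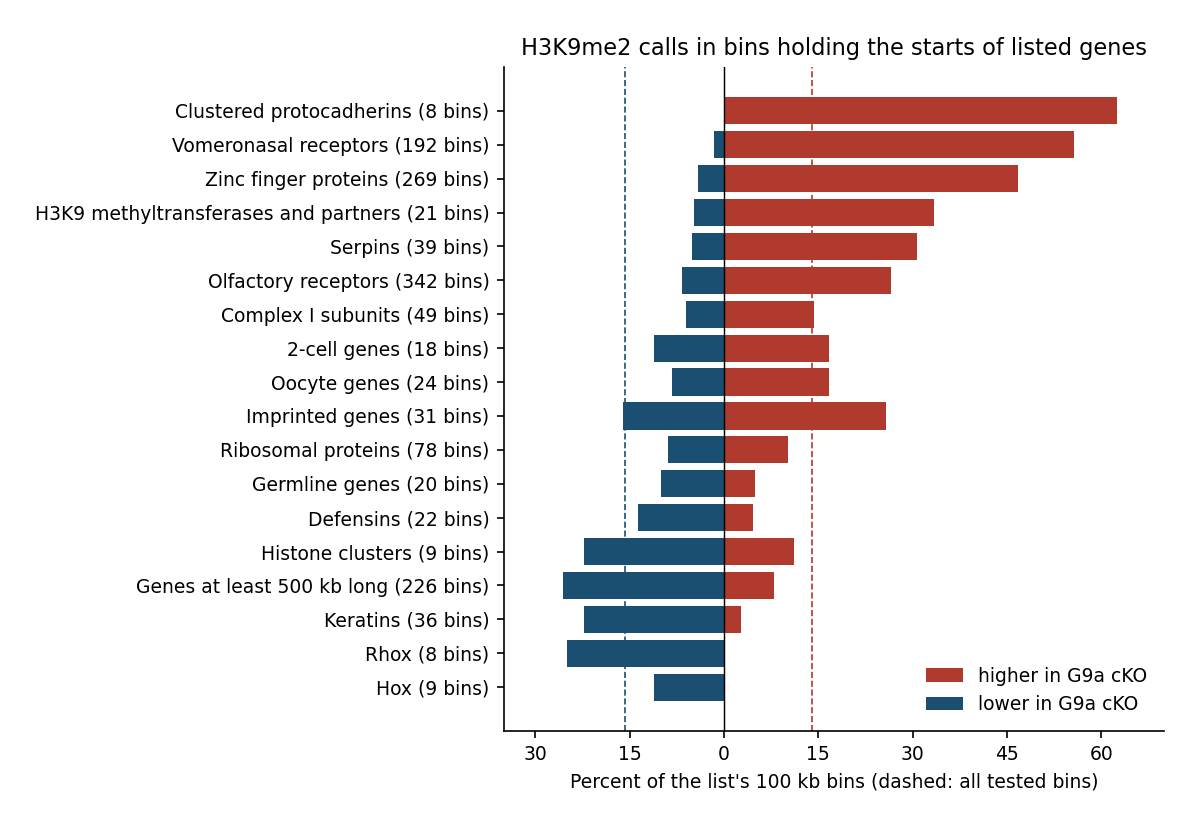
Share of the 100 kb bins of each gene list that were higher (right) or lower (left) in G9a cKO than in control at an adjusted p under 0.05, in percent, with the number of bins of each list and dashed lines at the shares over all tested bins (13.9% and 15.7%). Clustered protocadherins, vomeronasal receptors and zinc finger proteins extend farthest to the right, and long genes, Rhox, keratins and histone clusters farthest to the left.

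A list of H3K9 methyltransferase genes and partners also holds demethylase genes such as Kdm3a and Kdm4a and the reader genes Cbx1, Cbx3 and Cbx5. Its bins had more higher than lower calls, 7 and 1 of 21 (median 0.37), with 3 higher without control 2 and 4 without control 4. These were 33.3% and 4.76%, beside 16.8% and 11.4% of all bins with a start. The bin of Setdb1, an H3K9 methyltransferase gene, went from 35.0 and 35.4 RPM to 68.4 and 63.1 RPM (0.88 ± 0.14, adjusted p = 0.00215), and that of Atf7ip, its partner, from 32.6 and 29.0 RPM to 57.1 and 64.0 RPM. In both bins the groups were far apart. The bin of Ehmt2, the gene of G9A (chr17:34800001-34900000), went from 38.9 and 38.3 RPM to 58.2 and 73.9 RPM (0.75 ± 0.14, adjusted p = 0.00491). The bin of Ehmt1, the gene of GLP (chr2:24900001-25000000), held 41.0 and 37.4 RPM in the controls and 36.1 and 41.5 RPM in G9a cKO, with overlapping groups (-0.02 ± 0.14, adjusted p = 0.939). Both bins hold the start of the gene, while most of its body lies outside. Ehmt2 spans chr17:34898463-34914073 and Ehmt1 chr2:24790769-24919643.

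The ends of the chromosomes nearest the centromere gained. Mouse chromosomes have the centromere at one end, and the assembly begins 3 Mb into each of them. In the first 8 Mb, which hold 5 bins of 1 Mb per chromosome, 73 of 100 bins were higher and 4 lower, from means of 340 and 345 RPM to 444 and 427 RPM (median log2 difference 0.33). The median was above 0 on 19 of 20 chromosomes, and all 5 bins were higher on 6 of them. Of all 1 Mb bins, 24.8% were higher and 30% lower. Without control 2, 59 of the 100 bins were higher and 1 lower, and without control 4 61 and 1. In the last 5 Mb, 52 of 113 bins were higher and 28 lower (median 0.14). At 100 kb the first 8 Mb had 36.9% higher and 3.55% lower bins. The last 5 Mb had 18.2% and 14.2% there, near the 13.9% and 15.7% of all 100 kb bins.

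The first assembled bin of 1 Mb, a position singled out after its values were seen, was higher on 20 of 20 chromosomes, by 0.22 (chromosome 15) to 1.31 (X) on the log2 scale. On chromosome 3 it went from 303 RPM in both controls to 594 and 524 RPM (0.88 ± 0.09, adjusted p = 7.83e-05), and on chromosome 9 from 310 and 330 RPM to 564 and 554 RPM (0.80 ± 0.07, adjusted p = 5.08e-05). Chromosome 15 had 345 and 349 RPM against 416 and 391 RPM (adjusted p = 0.0119). On chromosome 14 and on X the control level was low, at 27.0 and 21.2 RPM and at 42.6 and 45.6 RPM. The other 18 bins began at 198 to 378 RPM, all below the median of autosomal 1 Mb bins in the controls (398 and 402 RPM). The rise was thus not limited to the bins of chromosome 14 and X, but every first bin began below this median. It was called on 19 chromosomes without control 2 or under quantile normalisation and on 18 without control 4.

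The rise near the centromere was seen at both gene densities. Among bins of the first 8 Mb, 26 of 32 with 10 or more protein-coding starts and 47 of 68 with fewer were higher. Elsewhere the counts were 288 of 748 and 278 of 1724, with 95 and 673 lower.

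**Figure D3:**
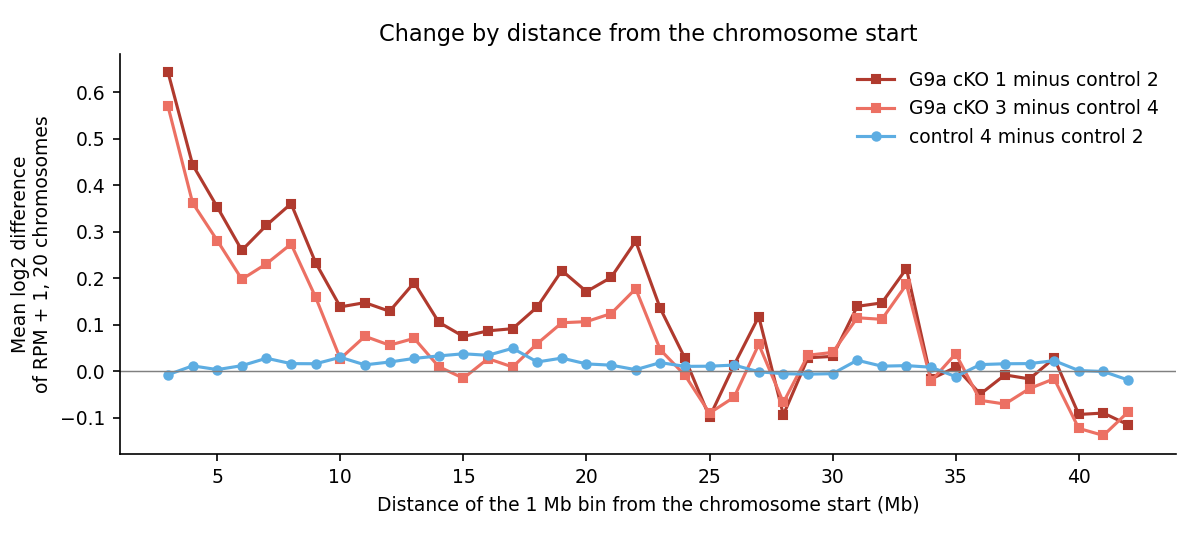
Mean log2 difference in H3K9me2 level over chromosomes at 1 Mb bins from 3 to 42 Mb along the chromosome (x axis, Mb), for separate pairs of libraries (G9a cKO 1 minus control 2, G9a cKO 3 minus control 4) and for control against control. At the first assembled bin both G9a cKO pairs are highest, at 0.64 and 0.57, while the pair of controls lies at -0.01.

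The change also went with the level in controls. Bins of 100 kb were put in 10 equal classes by the level in control 2, and the change was measured against control 4, so that noise of the library used for the classes does not enter. In the lowest class the mean level went from 24.1 and 24.8 RPM to 31.1 and 30.5 RPM, and 59% of its bins were higher in both G9a cKO libraries than in control 4. In the highest class it went from 52.0 and 50.9 RPM to 43.9 and 44.3 RPM, and 66.5% of the bins were lower in both. The mean log2 difference was 0.32 and 0.27 in the lowest class for G9a cKO 1 and 3, and -0.26 and -0.25 in the highest, with the classes between in order. These are descriptions without a test, and the classes of low level include the repeated regions described above.

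**Figure D4:**
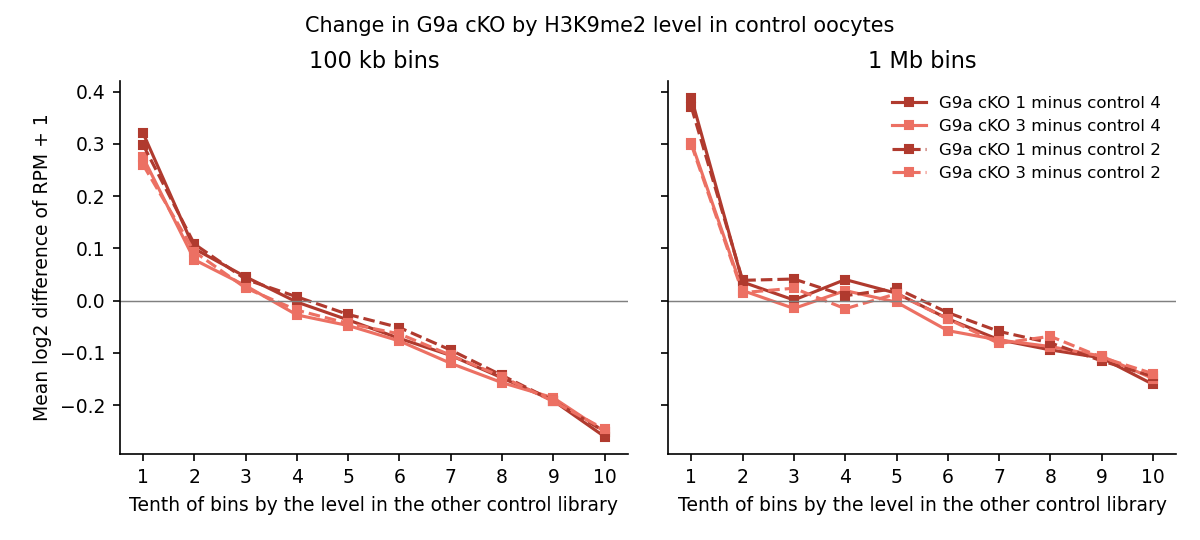
Mean log2 difference of each G9a cKO library from one control in 10 equal classes of bins, ordered from lowest to highest by the level in the other control (left 100 kb, right 1 Mb; solid lines against control 4, dashed against control 2). At 100 kb the solid lines fall from 0.32 and 0.27 in the lowest class to -0.26 and -0.25 in the highest, and at 1 Mb the lowest class stands apart at 0.39 and 0.30.

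Whole chromosomes differed by little. Of 20 chromosomes, 9 passed (45%) in limma: chromosomes 5, 10, 11, 15 and 17 were higher (25%) and 3, 14, 16 and X lower (20%). Chromosome 17 held 3.41% and 3.43% of the reads in the controls and 3.86% and 3.83% in G9a cKO (0.17 ± 0.02, adjusted p = 0.00136). Chromosome 16, with Robo2, Epha3 and Lsamp, held 3.82% and 3.87% against 3.43% and 3.30% (-0.19 ± 0.02, adjusted p = 0.00136). On chromosome 16, 57 of 96 bins of 1 Mb were lower and 14 higher, while on chromosome 17, 45 of 92 were higher and 9 lower. The X chromosome held 5.99% and 5.90% against 5.67% and 5.39% (-0.11 ± 0.03, adjusted p = 0.0479), with 72 of 164 bins lower and 30 higher. Only chromosomes 5, 16 and 17 kept the call without control 2, as without control 4. The fit on the 2 control and 2 G9a cKO libraries alone called the same 3.

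**Figure D5:**
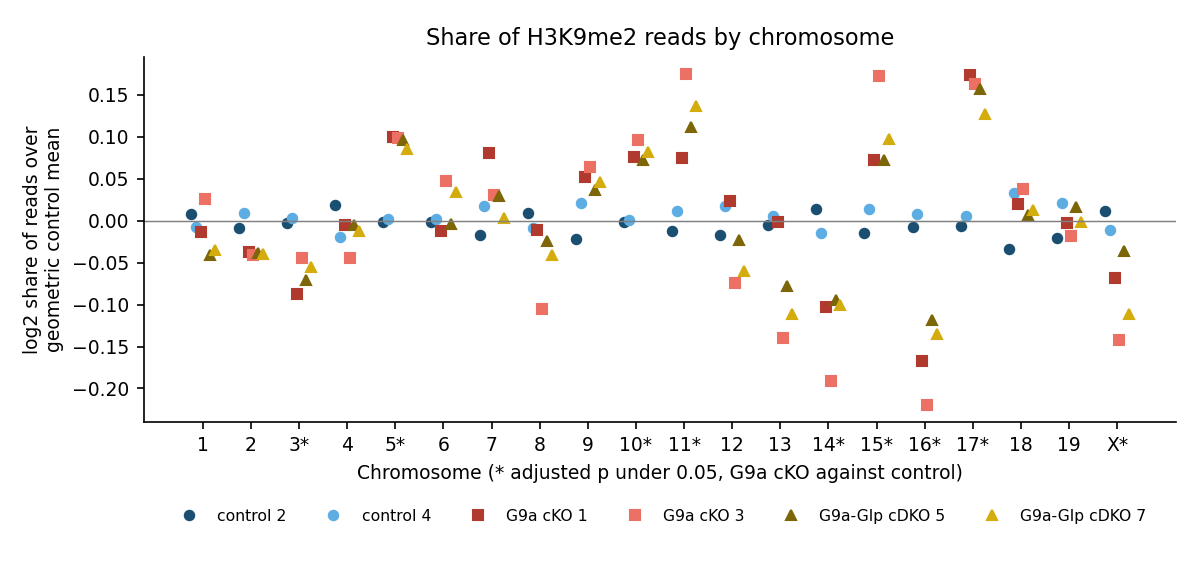
Share of H3K9me2 reads on each chromosome as the log2 ratio to the geometric mean of the controls, 1 point per library, with asterisks where G9a cKO differed from control at an adjusted p under 0.05. Chromosomes 16 and 17 lie farthest apart, at -0.19 and 0.17 in the mean of the G9a cKO libraries.

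Windows of 10 kb were too shallow for firm calls, with a median of 6 and 4 reads in G9a cKO. Of 255057 windows, 4469 were higher (1.75%) and 261 lower (0.102%), together 4730 (1.85%). The count was 0 without G9a cKO 3 and in the fit on 4 libraries, 13627 without G9a cKO 1, 2496 without control 2 and 2985 without control 4. At an unadjusted p under 0.05, 48990 windows passed.

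RNA of G9a cKO oocytes, measured in 3 control and 3 G9a cKO libraries that are other samples than the H3K9me2 libraries, was set beside the bins. Markers of the oocyte summed to 14760 to 14952 RPM in the control and 14572 to 15243 RPM in the G9a cKO RNA libraries. The granulosa cell markers summed to 402 to 442 and 390 to 404 RPM, and the 2 blood markers that could be matched were at 0. Most of the granulosa sum came from Bmpr1b (217 to 258 RPM), Nr5a2 (89.8 to 125 RPM) and Cyp19a1 (23.5 to 48.6 RPM). The other granulosa markers were at 12.3 RPM or less in every library. Ehmt2 had 8.23, 6.81 and 5.27 RPM in control and 2.09, 6.01 and 0.942 RPM in G9a cKO and did not pass the test (-1.55 ± 0.51, adjusted p = 0.0971), and which part of the gene was deleted is not given in the sources used here. In Mt1, a metallothionein gene, RNA went from 1.37, 0 and 0 RPM to 51.8, 63.4 and 68.3 RPM, while its H3K9me2 bin held 39.3 and 35.1 RPM against 31.8 and 31.6 RPM and did not pass (-0.22 ± 0.15, adjusted p = 0.270).

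Of 38540 RNA loci, 405 were higher (1.05%) and 284 lower (0.737%) in G9a cKO, together 689 (1.79%), and 379 passed without G9a cKO RNA replicate 2. The 405 loci with more RNA lay in 390 bins of 100 kb, of which 61 were higher and 56 lower in H3K9me2. The 284 loci with less RNA lay in 271 bins, of which 56 were higher and 17 lower. Bins of detected loci without a call in RNA had 1002 higher and 439 lower of 5843. Of the bins of loci with more RNA, 14.4% were thus lower, beside 7.51% of those of detected loci without a call, 13.1% of those of the remaining loci and 15.7% of all 100 kb bins. The share was near that of all bins, and no test of these differences was run. Of 69 loci that had at most 3 reads in every control, the 67 bins had 16 lower (23.9%) and 6 higher (8.96%), also without a test.

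Both readouts passed at 197 of the 689 called RNA loci, while 29.7% of all 100 kb bins were called in H3K9me2. Of these loci, 62 with more RNA lay in higher bins and 58 in lower bins. With less RNA, 60 lay in higher bins and 17 in lower bins. Of the bins of loci with more RNA, 15.6% were higher and 14.4% lower. With less RNA the shares were 20.7% and 6.27%, beside 13.9% and 15.7% of all 100 kb bins. These differences were not tested. The ones named here are among those with the largest RNA change. An unnamed locus at chr7:17635299-17640629 had RNA going from 4.80, 7.33 and 4.10 RPM to 52.6, 57.9 and 40.0 RPM and lay in a bin whose H3K9me2 rose from 37.2 and 38.0 RPM to 81.3 and 73.0 RPM (1.02 ± 0.14, adjusted p = 0.00132). More RNA thus went with more H3K9me2 there. Gab1, an imprinted adaptor gene (chr8:80764434-80880505), had 2.06, 1.57 and 0.586 RPM of RNA in control and 20.5, 13.1 and 21.7 RPM in G9a cKO. Its bin went from 35.3 and 45.1 RPM to 26.4 and 28.8 RPM (-0.52 ± 0.17, adjusted p = 0.0416), a call lost without control 2 (adjusted p = 0.103), control 4 (0.460) or G9a cKO 1 (0.0891).

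The G9a-Glp cDKO libraries share the control libraries of this comparison, so their values are given side by side only. In the bins higher in G9a cKO, the median 1 Mb level was 454 and 437 RPM in cDKO, beside 475 RPM in both G9a cKO libraries and 380 and 379 RPM in the controls. In the lower bins it was 353 and 359 RPM, beside 338 and 330 RPM and 412 and 419 RPM. The Vmn1r bin at chr7:21000001-22000000 held 59.8 and 76.0 RPM in cDKO, the bin inside Robo2 270 and 285 RPM, and the bin of Phf6, Hprt and Gpc3 324 and 316 RPM. In each of these 3 bins the cDKO levels lay above or below both controls on the same side as in G9a cKO. Compared directly, 226 of 2572 bins of 1 Mb differed between cDKO and G9a cKO (8.79%), 102 higher and 124 lower in cDKO.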

How the data were processed

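Per the labels, H3K9me2 was profiled by native chromatin immunoprecipitation with 250 ng of antibody in 2 libraries per genotype. The authors deposited log2 values per 10 kb window, with a column for each library. The values were log2 of whole reads (100% within 0.01 read) per 1000000 reads of the library (RPM), with 0.9 read for empty windows. Trim Galore, Bowtie2, HISAT2 (2.1.0), Bismark (0.19.0) and GRCm38 are named, without roles, per the submitters' processing notes. How windows were filtered and how duplicate and multiply matching reads were treated is not given in the sources used here. A further 4 columns of per-sample values matched no sample and were not used. Values were turned to RPM, empty windows set to 0, summed, and tested as log2 of RPM plus 1 (10 kb windows: deposited values; chromosomes: no trend) with limma 3.58.1, trended and robust moderation, 1 mean per genotype over 6 libraries, two-sided, Benjamini-Hochberg over all bins, called at an adjusted p under 0.05. An exact permutation test of 2 against 2 cannot go below p = 0.333. Files were read by data.table (1.17.8) under R 4.3.3. The scripts were tested on simulated data.

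RNA loci, also deposited as log2 values, were fitted likewise over 11 libraries. The titles of the control and G9a cKO RNA libraries carry numbers that recur in both groups. What these numbers stand for is not given in the sources used here, and they were not entered in the fit. Gene starts came from RefSeq (GRCm38.p6): 17492 of 21887 protein-coding genes (79.9%) had a promoter entry, and the others were placed at the middle of the gene. Named regions were the 8 called 1 Mb bins with the largest log2 difference and the 8 longest runs per direction, named genes the 3 per list with the largest absolute difference, a few of which are given, and the 8 RNA loci called in both readouts by RNA change (1 of them is not reported here), plus Ehmt2, Ehmt1 and Mt1. Region genes were at most 3, by RNA or length. Members and lists were chosen with earlier results of these data known. Alternatives covered pseudocount, filters, scaling, weights, depth, bin edges, libraries in the fit and each library left out. Plots were drawn by matplotlib 3.10.9 and pandas 2.3.3 under Python 3.11.15.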

Additional observations from a re-analysis of the deposited data

How the results depend on the processing

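No paired analysis was possible because the numbers of the H3K9me2 libraries (2 and 4 in control, 1 and 3 in G9a cKO) are not shared between the groups. Of 205 alternative values of the main results, 141 stayed within the limits set for their kind and 64 moved. Most of these values are counts of calls, which have no sign to turn. Among the others, means and medians of classes of bins, none turned its sign. At 100 kb, 5037 bins were called without a bin filter (2514 lower) and 4947 after thinning (2354 lower). Leaving out 1 library gave 1767 to 7937 calls at 100 kb (1244 to 3590 higher, 523 to 4471 lower), 787 to 1554 at 1 Mb (355 to 713 higher, 432 to 841 lower), 0 to 13627 at 10 kb (0 to 3848 higher, 0 to 9779 lower), 3 to 12 chromosomes (2 to 6 higher, 1 to 6 lower) and 379 to 579 RNA loci. The fit on 4 libraries called 3 chromosomes (2 higher, 1 lower) and 0 windows of 10 kb. At 10 kb, calls numbered 32053 over all windows (28289 higher, 3764 lower), 1695 with at least 10 reads (1663 and 32), 564 on log2 of RPM plus 1 (557 and 7), 29657 with precision weights by voom (22002 and 7655) and 344 after thinning (343 and 1). The cause of these shifts was not tested. The lowest of the 10 classes by control level stood at 0.35 for 1 Mb bins, and the highest at -0.25 with classes from the other control, -0.20 after thinning and -0.15 for 1 Mb bins. With 1 library left out, the median was 0.15 to 0.17 for bins with 20 or more starts, -0.14 to -0.11 without a start and 0.17 to 0.19 for tandem families. For tandem families it was 0.18 without the 0.1% of windows with the most reads and 0.17 without bins under 50% of the median level, an alternative added after seeing the data. For the 16 named 1 Mb bins, 239 of 242 values kept their call. For bins of named genes and loci, 938 of 1016 values kept their state, called or not, 65 lost a call, 8 gained a call and 5 turned sign. Genes that share a bin were counted separately here. The gains were in the bin of Tex11 and the bin of Hoxb3, Hoxb4 and Hoxb5. The turns of sign were all for Ehmt1: 0.064 with median centring, 0.055 with quantile normalisation, 0.025 after thinning, 0.048 without control 2 and 0.081 without G9a cKO 1. Depth in G9a cKO limits what can be said below 100 kb.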
